A study of Mus musculus with 10 samples.

Results

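The 38 genes described here are transcripts of T cells, natural killer (NK) cells, B cells and the stroma of lymph nodes, taken by name from a gene table of 55291 entries. All 38 were in the table. By role they comprised 8 genes of the T cell receptor complex and its coreceptors, 7 of T cell signalling and costimulation, 3 of naive, memory and regulatory T cells, 7 of cytotoxic and NK cells, 8 of B cells, and 5 of lymph node stroma and its organisation.

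The study compared submandibular salivary glands of C57BL/6J mice, 8 weeks old, whose sex the labels give as female. In the ligated group, the duct of the right gland was tied at its proximal and distal ends under a microscope. In the sham group, the skin was opened and the gland dissected without a ligature. Both groups were sampled at day 7, and each held 5 libraries from what the design text describes as 5 mice, so the p-values measure the spread between mice. The labels give no other allele, transgene or drug in either group apart from the anaesthetic, and do not describe how the gland was separated from neighbouring tissue. A tied duct keeps saliva from leaving the gland, and the series asks about gene expression in chronic obstructive inflammation of this gland.

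Values are FPKM, which scale fragments by gene length and by library size, so levels can be set side by side between genes. Between 12923450 and 14333120 reads per ligated library and between 12105828 and 17305809 per sham library were assigned to genes, as recovered from the values. In a gene of 1 kilobase, 3 reads amounted to between 0.173 and 0.248 FPKM, and lower values rest on almost no reads. The summed FPKM was 337121 to 454370 in ligated and 504092 to 604875 in sham libraries. Submandibular acinar and tubule markers summed to 11676 to 78048 FPKM in ligated and 131322 to 277511 FPKM in sham libraries. The sex label did not match the transcripts. The Y-linked genes Ddx3y and Eif2s3y stood at 3.58 to 16.3 and 3.46 to 10.9 FPKM over the 10 libraries, and Xist reached at most 0.0267 FPKM.

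T cells recognise peptides on MHC molecules through a receptor of alpha and beta chains that signals through the CD3 chains, with CD4 or CD8 as coreceptor, while B cells signal through surface immunoglobulin and the CD79 chains. In lymph nodes, stromal cells make the chemokines CCL19 and CCL21, which draw CCR7-bearing T cells and dendritic cells, and follicular stroma makes CXCL13, which draws CXCR5-bearing B cells. Lymphocytes enter nodes through high endothelial venules, whose cells carry sulphated ligands for L-selectin. The healthy salivary gland contains scattered T cells, NK cells and antibody-secreting cells, and lymph nodes lie next to the submandibular gland in the mouse.

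The libraries did not divide by operation for these genes. Ligated 1, 2 and 3 together with sham 1 stood apart, and in 35 of the 38 genes they were the 4 highest of the 10 libraries. The same held for 10.9% of the 15172 genes that reached 1 FPKM in any library. The 3 exceptions were the granzymes Gzma, Gzmb and Gzmk. In 31 of the 38, the lowest of these 4 libraries was more than 2 times the highest of the other 6, a count for which no share over all genes was taken. The 4 libraries were named from the values of these genes, so the counts of 35 and 31 describe the pattern and do not test it. Sham 1 exceeded every ligated library in 13 of the 38, namely all 8 B cell genes, 4 of the 5 lymph node genes and the NK receptor gene Klrb1c, against 7.99% of the 15172 genes. Ligated 3 was the highest library for 18 of the 38, again without a share over all genes. Each result is therefore given by library, and with and without libraries that stood apart.

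**Figure D1:**
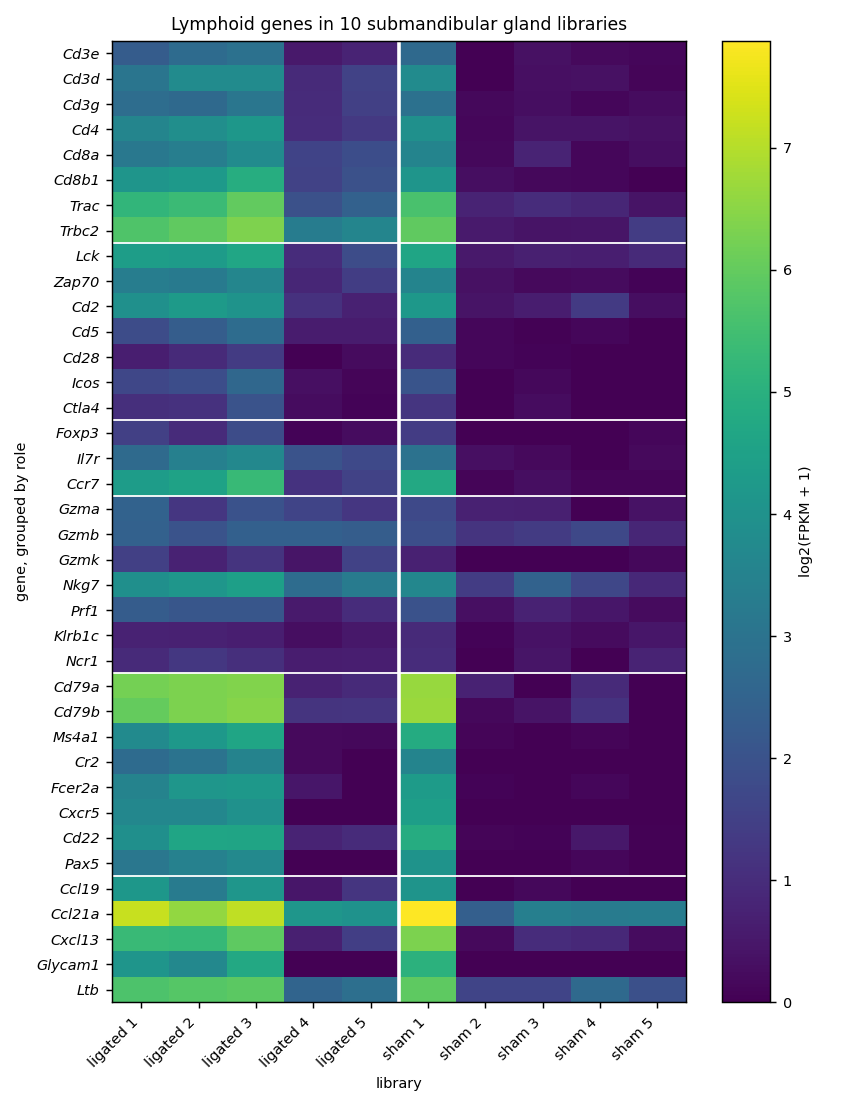
Level of each of the 38 genes, as log2(FPKM + 1) in colour, in ligated libraries 1 to 5 (left) and sham libraries 1 to 5 (right), with rows grouped by role. Ligated 1, 2 and 3 and sham 1 form bright columns in nearly all rows, while ligated 4 and 5 and sham 2 to 5 are dark.

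Summed over the 8 T cell receptor genes, the level was 139, 166, 229, 19.0 and 27.1 FPKM in ligated 1 to 5, against 176, 1.74, 3.23, 2.20 and 2.84 FPKM in sham 1 to 5. Sham 1 lay among the 3 high ligated libraries, and the 2 low ligated libraries lay above the other 4 sham libraries. In bulk tissue, fewer T cells and less RNA per cell cannot be told apart. Ligated 4 and 5 both exceeded sham 2 to 5 in 8 of the 8 genes. Over all 38 genes this held for 22, and over the 15172 genes for 60.5%, so the share was close to that of genes in general.

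The sums of the B cell genes behaved otherwise. They were 199, 244, 270, 3.39 and 3.37 FPKM in ligated 1 to 5, against 324, 1.03, 0.369, 2.82 and 0.0415 FPKM in sham 1 to 5. Sham 1 was the highest library, and sham 4 came close to ligated 4 and 5. The 5 lymph node genes summed to 272, 210, 298, 22.4 and 24.4 FPKM in ligated 1 to 5, against 420, 6.37, 12.8, 15.1 and 11.8 FPKM in sham 1 to 5. Here too sham 1 was highest. Ligated 4 and 5 stood above sham 2 to 5 in the sum, of which Ccl21a made up 16.6 and 15.0 FPKM in these 2 libraries. Gene by gene, this order held in 2 of the 5.

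The cytotoxic and NK genes spread least. Their sum was 30.5, 27.1, 34.2, 13.9 and 18.1 FPKM in ligated 1 to 5, against 22.1, 3.85, 8.21, 4.96 and 3.40 FPKM in sham 1 to 5. Sham 1 lay below ligated 1, 2 and 3 and above ligated 4 and 5.

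**Figure D2:**
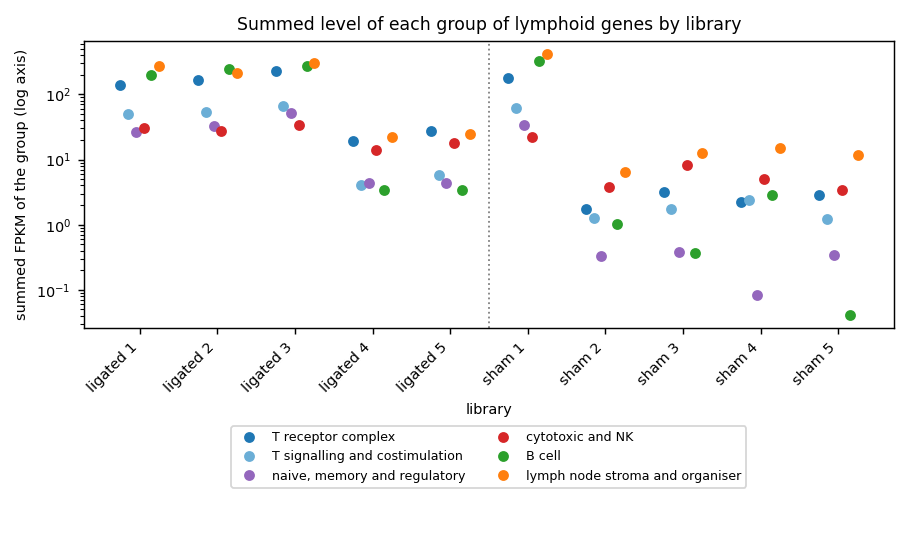
Summed FPKM of each of the 6 groups of genes (colours, log axis) in ligated libraries 1 to 5 and sham libraries 1 to 5. The B cell sum spans 0.0415 to 324 FPKM and the cytotoxic and NK sum 3.40 to 34.2 FPKM.

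Groups were compared with limma on log2(FPKM + 1), with Benjamini-Hochberg adjustment over all tested genes. A call needed both an adjusted p below 0.05 and a change of 1 or more on the log2 scale, in either direction. Testing was limited to genes that reached 1 FPKM in 5 or more libraries, as 21 of the 38 did. A gene present in only the 4 libraries that stood apart cannot reach this limit, and 12 of the 38 were at 1 FPKM in exactly 4 libraries. Of the 21 tested, 6 were higher in ligated glands and 0 lower, against 17.1% of 11856 tested genes higher and 1.16% lower. The 6 were Trbc2, Cd8a, Cd8b1, Il7r, Gzma and Nkg7. Since passing the filter depended on the same levels, this count is given as a description only. The median of all tested genes was itself at a log2 fold change of 0.53. Of all calls, 93.6% were higher. After median-ratio scaling, which moved that median to 0.01 and the share of higher calls to 64.1%, 0 of the 21 were called, against 7.09% of all genes higher and 3.97% lower. After quantile normalization, with a median of -0.08 and 57.5% of calls higher, 0 were called, against 5.81% higher and 4.29% lower. The fold changes of the 21 genes were above 0 under both. At an unadjusted p under 0.05, 5 were higher after median-ratio scaling and 3 after quantile normalization. No share over all genes was taken for these counts.

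Without a filter, 26754 genes were tested, all 38 among them. The log2 fold change was above 0 in all 38, with a median of 1.57, against 0.18 over all genes. By limma, Il7r and Nkg7 were then called higher and 0 lower, against 7.68% of all genes higher and 0.404% lower. At an unadjusted p under 0.05, 9 of the 38 were higher, a count for which no share over all genes was taken.

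Other settings changed the count, and 0 of the 38 were lower in any of them. With a pseudocount of 0.1, 13 were called higher, against 25.3% of all genes higher and 1.56% lower. With libraries rescaled to the same summed FPKM, 18 were higher, against 46.1% higher and 0.548% lower. With voom on recovered reads it was 10, against 27% higher and 1.66% lower. With a filter at 5 FPKM, 2 of 4 tested were higher, Trbc2 and Nkg7, against 17.7% higher and 1.54% lower. With a B cell covariate, added after seeing the data, 2 were higher with the filter, against 13.9% higher and 0.953% lower, and 2 without it, against 6.69% higher and 0.306% lower. With the covariate and no filter, 27 of the 38 fold changes were above 0. The median of the 38 was 0.19 (0.05 above that of all genes). At an unadjusted p under 0.05, 11 were higher and 4 lower, counts for which no share over all genes was taken. The 4 lower genes were Ms4a1, Cxcr5, Pax5 and Glycam1, with log2 fold changes of -0.39, -0.44, -0.43 and -0.56. The covariate was the mean of B cell genes outside the 38, so B cell genes were adjusted by their own cell type. It was 1.17 and 1.06 in ligated 4 and 5, against 0.46 to 0.68 in sham 2 to 5, where Cxcr5 and Glycam1 were near 0 in all of them. The adjustment thus sets much of these values, and they do not show lower levels after ligation.

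The count rested on single libraries. It was 21 of the 21 tested without sham 1, against 23% of all tested genes higher and 1.35% lower. It was 13 without ligated 4 and 7 without ligated 5, against 17.8% and 17.4% of all genes higher. It was 3 without ligated 1, 3 without ligated 2 and 2 without ligated 3, against 18.5%, 14.9% and 15.9% of all genes. It was 3 without sham 2, 3 without sham 3, 2 without sham 4 and 3 without sham 5, against 14.9%, 14.5%, 16.8% and 16.4% of all genes. In these 7 fits that left out any of ligated 1 to 3 or sham 2 to 5, 2 or 3 of the 21 were called. That share was close to or somewhat below that of all genes. Passing the filter depended on the same levels, so these counts are a description only. Without sham 1 and with no filter, 23 of the 38 were called higher, against 11% of all genes higher and 0.515% lower. Without the 4 libraries that stood apart, ligated 4 and 5 were compared with sham 2 to 5. These libraries were left out because of the values of the genes reported here, after those values were seen. With the filter, 10 of the 21 were then higher, against 21.9% of all genes higher and 1.41% lower. The filter had been set on all 10 libraries. Some of the 21, such as Cd3d, Cd3g and Zap70, passed it because ligated 5 (1.91, 1.8 and 1.72 FPKM) reached 1 FPKM beside the 4 libraries. The 21 were thus partly selected by the group then tested, and this count is a description only. With no filter, 37 of the 38 could be tested and 10 were higher, against 11.8% higher and 0.595% lower. They were Cd3d, Cd3g, Cd8a, Cd8b1, Trac, Trbc2, Il7r, Ccr7, Gzmb and Nkg7, with 0 B cell and 0 lymph node genes among them.

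**Figure D3:**
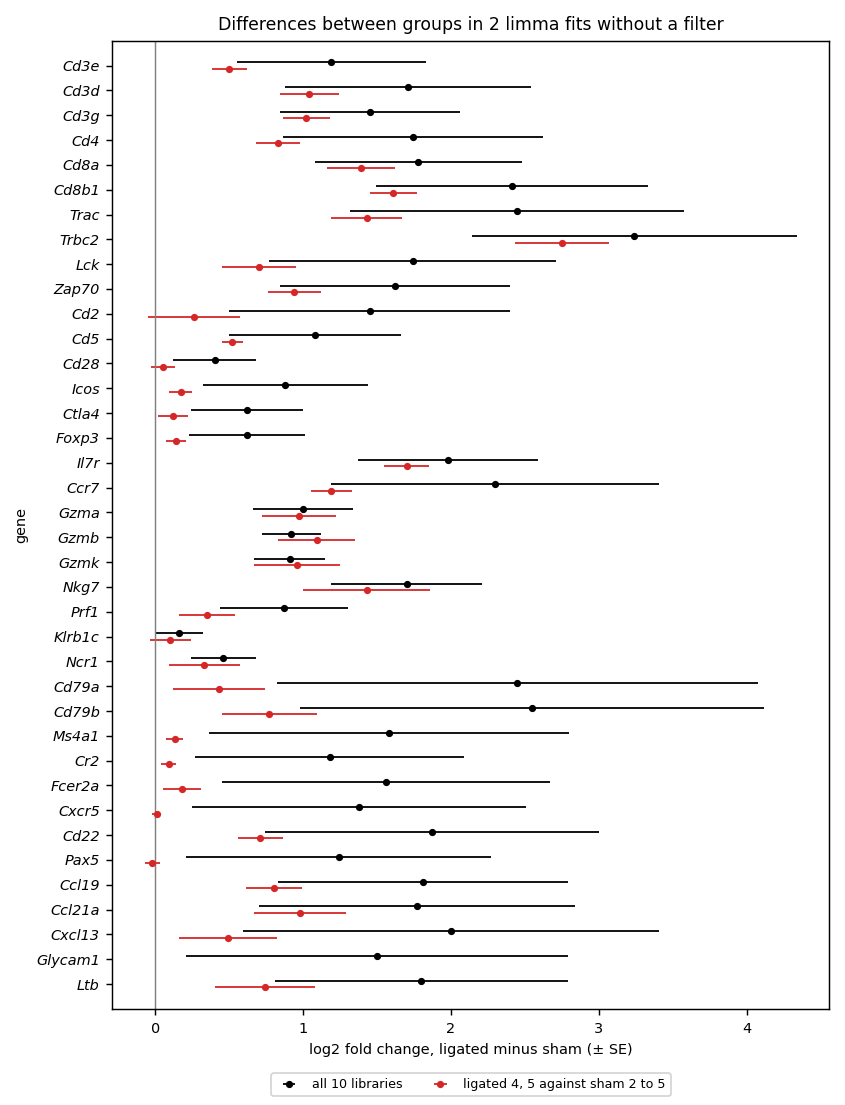
Log2 fold change on the log2(FPKM + 1) scale, ligated minus sham, with its standard error, for the 38 genes in 2 limma fits without a filter, one with all 10 libraries (black) and one with ligated 4 and 5 against sham 2 to 5 (red). The B cell genes have wide error bars with all 10 libraries and values of -0.02 to 0.77 in the smaller comparison, while T cell receptor genes lie between 0.50 and 2.75 there.

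Trbc2 encodes a constant region of the T cell receptor beta chain (chr6:41546730-41548352, plus strand, GRCm38). Its level was 51.5, 60.8, 81.5, 8.87 and 11.1 FPKM in ligated 1 to 5, against 60.9, 0.476, 0.334, 0.358 and 1.62 FPKM in sham 1 to 5. Every ligated library lay above sham 2 to 5, but sham 1 lay above 4 of the 5 ligated libraries. The log2 fold change was 3.24 ± 1.06 (SE, limma, adjusted p = 0.0229), and 2.75 ± 0.32 in ligated 4 and 5 against sham 2 to 5. The call was lost without ligated 2 or 3 or without sham 2, 3 or 4 (2.89 to 2.99, adjusted p 0.0510 to 0.0606). Trbc1, the other beta constant gene, is 95.6% identical to Trbc2 over 521 aligned transcript bases, so reads of the pair may be split. Trbc1 was at 26.3, 28.8, 30.4, 2.33 and 3.02 FPKM in ligated 1 to 5, against 33.6, 0.220, 0.694, 0.772 and 0.640 FPKM in sham 1 to 5, with the same 4 libraries highest.

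The alpha chain constant gene Trac (chr14:54220521-54224206) stood at 35.2, 40.5, 62.2, 2.84 and 4.44 FPKM in ligated 1 to 5, against 48.2, 0.705, 0.989, 0.795 and 0.342 FPKM in sham 1 to 5. With a log2 fold change of 2.45 ± 1.09 it did not pass the test (limma, adjusted p = 0.0703). The coreceptor genes Cd8a and Cd8b1 lie close together on chromosome 6 (71373427-71379173 and 71322788-71337494). Cd8b1 was at 16.4, 17.8, 28.8, 1.93 and 2.90 FPKM in ligated 1 to 5, against 16.3, 0.222, 0.117, 0.111 and 0 FPKM in sham 1 to 5. Cd8a was at 7.98, 9.32, 12.9, 2.00 and 2.64 FPKM in ligated 1 to 5, against 10.7, 0.113, 0.715, 0.0909 and 0.220 FPKM in sham 1 to 5. In both, ligated 4 and 5 stood between sham 1 and the other sham libraries. Their log2 fold changes were 2.41 ± 0.89 for Cd8b1 and 1.78 ± 0.67 for Cd8a (limma, adjusted p = 0.0363 and 0.0405). Both calls were lost without ligated 1, 2 or 3 and without sham 2, 3, 4 or 5, with adjusted p between 0.0707 and 0.0846 for Cd8b1 and between 0.0742 and 0.0938 for Cd8a.

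Cd4, the coreceptor of helper T cells, was at 11.1, 13.8, 16.8, 1.00 and 1.5 FPKM in ligated 1 to 5, against 14.5, 0.102, 0.344, 0.328 and 0.278 FPKM in sham 1 to 5. The log2 fold change of 1.74 ± 0.85 did not pass (limma, adjusted p = 0.0931). The log2 ratio of Cd8a to Cd4 within a library, with 0.1 FPKM added to both, averaged 0.06 ± 0.73 in ligated and -0.18 ± 0.74 in sham libraries (SD, n = 5 each), and the difference of 0.23 did not pass an exact permutation test (two-sided, p = 0.643, 0.804 adjusted over 5 ratios). The ratio was -0.48, -0.56, -0.37, 0.92 and 0.78 in ligated 1 to 5, against -0.43, 0.08, 0.88, -1.16 and -0.24 in sham 1 to 5. Sham 1 thus had nearly the ratio of ligated 1, 2 and 3, while Cd8a exceeded Cd4 in ligated 4 and 5.

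The CD3 signalling chains Cd3e, Cd3d and Cd3g lie within one stretch of chromosome 9. Cd3d (chr9:44981786-44987339, plus strand) was at 7.41, 12.8, 12.9, 0.923 and 1.91 FPKM in ligated 1 to 5, against 12.9, 0, 0.255, 0.273 and 0.0881 FPKM in sham 1 to 5. Sham 1 was level with the highest ligated libraries. The log2 fold changes were 1.71 ± 0.80 for Cd3d and 1.45 ± 0.59 for Cd3g, and neither passed (limma, adjusted p = 0.0817 and 0.0515). Cd3e, at most 6.64 FPKM in ligated and 5.40 FPKM in sham libraries, reached 1 FPKM in 4 libraries and was not tested with the filter. The promoter of Cd3d is shown as one of 27 among the 38 genes with an entry in the RefSeq promoter table (GRCm38.p6), each running from 250 bases before to 50 after the transcription start. In it, capitals mark both matches to the ETS core AGGAAG, here on the opposite strand, at chr9:44981536-44981835, plus strand.
Cd3d: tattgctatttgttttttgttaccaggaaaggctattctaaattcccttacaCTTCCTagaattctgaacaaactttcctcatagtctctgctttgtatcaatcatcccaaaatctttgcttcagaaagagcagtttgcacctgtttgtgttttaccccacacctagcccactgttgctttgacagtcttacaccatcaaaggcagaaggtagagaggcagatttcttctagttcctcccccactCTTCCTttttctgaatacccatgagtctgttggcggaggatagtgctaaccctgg
This core, which ETS transcription factors bind, was found on either strand in a promoter of 17 of the 27 genes. Of the 32851 single promoters of the table, 35.4% held it. Some genes, such as Lck and Zap70, have an additional promoter, so the share of genes and the share of promoters are not like for like. A match is a description of the letters and no evidence of binding.

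In the signalling and costimulatory genes, too, ligated 1, 2 and 3 and sham 1 were the 4 highest libraries. Lck, the kinase that phosphorylates the CD3 chains, was at 20.1, 18.9, 24.1, 1.02 and 2.53 FPKM in ligated 1 to 5, against 24.0, 0.450, 0.631, 0.592 and 0.928 FPKM in sham 1 to 5. Zap70, the kinase recruited next, had at most 11.3 FPKM in ligated and 10.7 FPKM in sham libraries. Among the other 6 libraries the order was mixed, and ligated 4 and 5 both exceeded sham 2 to 5 in 3 of the 7 genes. The adhesion receptor Cd2, for example, had 1.20 and 0.650 FPKM in ligated 4 and 5 and 1.52 FPKM in sham 4. Of the 7 genes, 3 were tested and 0 called. The log2 fold changes were 1.74 ± 0.93 for Lck, 1.62 ± 0.75 for Zap70 and 1.45 ± 0.91 for Cd2 (limma, adjusted p = 0.123, 0.0793 and 0.180). The inhibitory receptor Cd5, the costimulatory receptors Cd28 and Icos and the checkpoint receptor Ctla4 reached at most 5.94, 1.58, 5.24 and 3.07 FPKM, each in ligated 3. In ligated 4 and 5, Cd28, Icos and Ctla4 lay between 0 and 0.244 FPKM, on 0 to 14 reads.

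Il7r encodes the receptor for interleukin 7, a survival signal for resting and memory T cells (chr15:9505788-9530176, minus strand). It was at 5.66, 9.81, 11.7, 3.07 and 2.33 FPKM in ligated 1 to 5, against 6.88, 0.247, 0.149, 0 and 0.154 FPKM in sham 1 to 5. All 5 ligated libraries stood above sham 2 to 5, and sham 1 lay within the ligated range. The log2 fold change was 1.98 ± 0.58 (limma, adjusted p = 0.0148) and passed without any 1 library. It was 1.70 ± 0.15 in ligated 4 and 5 against sham 2 to 5. The call of Il7r was lost after median-ratio scaling (1.65 ± 0.58) and quantile normalization (1.42 ± 0.55), with adjusted p from 0.000131 to 0.0720 over all alternatives.

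Ccr7, the receptor that guides naive T cells and dendritic cells to CCL19 and CCL21, was at 19.4, 22.3, 38.4, 1.23 and 1.91 FPKM in ligated 1 to 5, against 25.9, 0.0833, 0.234, 0.0835 and 0.0808 FPKM in sham 1 to 5. The difference of 2.30 ± 1.06 on the log2 scale did not pass (limma, adjusted p = 0.0799). Foxp3, the transcription factor of regulatory T cells, stood at 1.82, 0.947, 2.58, 0.0610 and 0.198 FPKM in ligated 1 to 5, against 1.66, 0, 0, 0 and 0.105 FPKM in sham 1 to 5. It is present in the 4 libraries that stood apart and rests on at most 12 reads elsewhere. Foxp3 overlaps Ccdc22 on the opposite strand, and whether counting used strand is not given in the sources used here.

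Among cytotoxic and NK genes the ligated libraries were more alike. Gzmb, the granule protease granzyme B (chr14:56258838-56262260, minus strand), was at 4.41, 3.02, 4.37, 4.28 and 4.00 FPKM in ligated 1 to 5, against 2.69, 1.26, 1.61, 2.24 and 0.779 FPKM in sham 1 to 5. It was the 1 gene of the 38 in which every ligated library exceeded every sham library, which held for 26.4% of the 15172 genes. Its mean was 4.01 ± 0.579 FPKM in ligated and 1.72 ± 0.762 FPKM in sham libraries (SD, n = 5 each). The log2 fold change of 0.92 ± 0.20 passed the p limit (limma, adjusted p = 0.00364) and was just short of the fold limit of 1. It was 0.46 ± 0.19 after median-ratio scaling, where it passed neither limit, and 1.09 ± 0.26 in ligated 4 and 5 against sham 2 to 5, where it was called. These levels rest on 56 to 89 reads in ligated and 14 to 50 reads in sham libraries.

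Nkg7, a granule membrane protein of NK cells and cytotoxic T cells (chr7:43437073-43438249, plus strand), was at 14.2, 16.7, 20.6, 5.95 and 8.75 FPKM in ligated 1 to 5, against 11.6, 1.62, 4.62, 2.17 and 0.875 FPKM in sham 1 to 5. Only sham 1 overlapped the ligated range. The log2 fold change was 1.70 ± 0.49 (limma, adjusted p = 0.0136) and passed without any 1 library. It was 1.43 ± 0.43 in ligated 4 and 5 against sham 2 to 5, and 1.16 ± 0.50 after median-ratio scaling, where it was not called. Gzma, granzyme A, was at 4.52, 1.38, 2.97, 2.08 and 1.35 FPKM in ligated 1 to 5, against 2.31, 0.655, 0.632, 0 and 0.318 FPKM in sham 1 to 5. Its log2 fold change was 1.00 ± 0.33 (limma, adjusted p = 0.0229), on the fold limit. The call of Gzma was lost without ligated 1 (0.81), ligated 3 (0.93), sham 4 (0.82) or sham 5 (0.92).

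Gzmk, the granzyme of memory CD8 T cells, ran from 0.352 to 1.96 FPKM in ligated libraries, against 0.668, 0, 0, 0 and 0.115 FPKM in sham 1 to 5. It overlaps Esm1, an endothelial gene on the opposite strand. Perforin, Prf1, which opens pores in target cells, was at 3.88, 3.32, 3.35, 0.486 and 1.02 FPKM in ligated 1 to 5, against 2.96, 0.255, 0.671, 0.384 and 0.186 FPKM in sham 1 to 5, and did not pass (0.87 ± 0.41, limma, adjusted p = 0.0859). The NK receptors Klrb1c and Ncr1 were low in every library, at 0.212 to 0.673 and 0.544 to 1.41 FPKM in ligated and 0.0556 to 0.914 and 0 to 1.00 FPKM in sham libraries. Neither reached 1 FPKM in 5 libraries.

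The promoters of Gzmb (chr14:56262285-56262584, minus strand) and Nkg7 (chr7:43436888-43437187, plus strand) are shown because these genes differed most evenly between the groups. Capitals mark the RUNX core TGTGGT or its reverse complement.
Gzmb: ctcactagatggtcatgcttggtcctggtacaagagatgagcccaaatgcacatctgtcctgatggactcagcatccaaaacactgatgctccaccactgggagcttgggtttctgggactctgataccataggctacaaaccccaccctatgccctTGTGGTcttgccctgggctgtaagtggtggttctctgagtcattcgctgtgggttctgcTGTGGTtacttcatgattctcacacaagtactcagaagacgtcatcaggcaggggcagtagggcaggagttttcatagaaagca
Nkg7: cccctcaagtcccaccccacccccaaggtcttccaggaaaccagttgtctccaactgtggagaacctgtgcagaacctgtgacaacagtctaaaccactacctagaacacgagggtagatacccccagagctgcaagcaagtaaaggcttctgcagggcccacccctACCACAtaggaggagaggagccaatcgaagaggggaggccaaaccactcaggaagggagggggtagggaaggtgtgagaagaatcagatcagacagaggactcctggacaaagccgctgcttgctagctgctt
The core, bound by the RUNX transcription factors of T and NK cells, was searched on either strand. It was present in a promoter of 6 of the 7 cytotoxic and NK genes and of 10 of the 27 matched genes. Of the 32851 single promoters, 16.8% held it. These shares are not like for like, since a gene such as Ncr1 has an additional promoter. The 6 genes were Gzma, Gzmb, Nkg7, Prf1, Klrb1c and Ncr1. The core lay 93 and 34 bases before the start of Gzmb and 83 before that of Nkg7. In Nkg7, Prf1, Klrb1c and Ncr1 the 4 libraries that stood apart were highest, and in Gzma and Gzmb they were not. The lowest of the 4 was 1.32, 2.9, 1.34 and 1.27 times the highest of the other 6 in the former genes. Whether the core has a part in these levels was not tested.

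**Figure D4:**
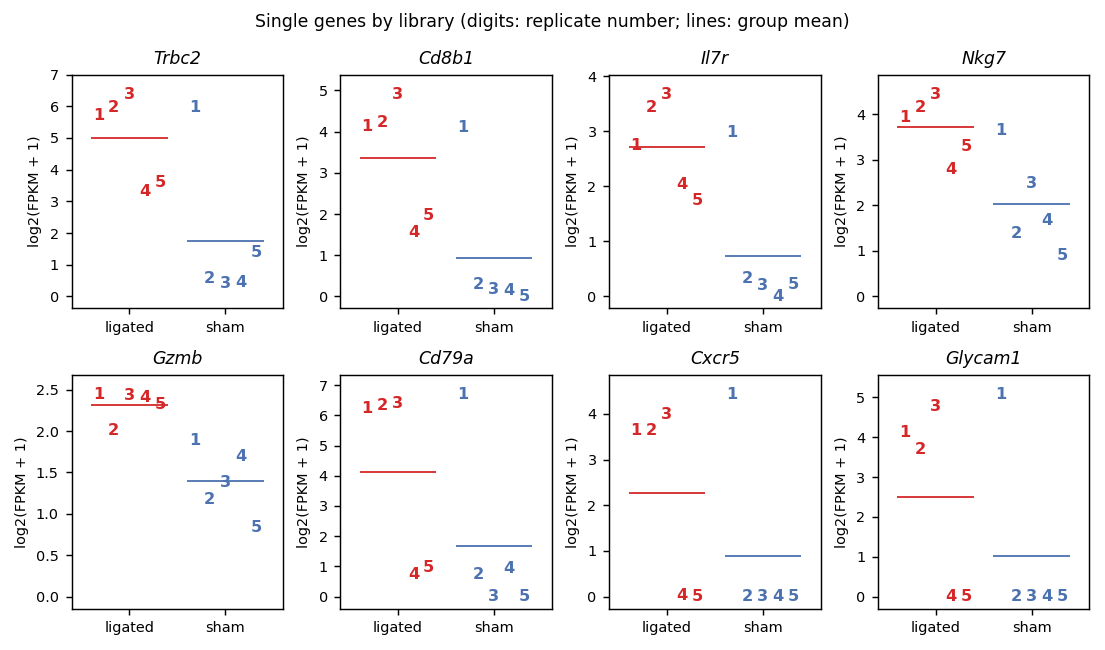
Level as log2(FPKM + 1) of 8 genes in ligated (left, red) and sham (right, blue) libraries, each digit being a replicate number and each line a group mean. Gzmb separates the groups, Il7r and Nkg7 separate them apart from sham 1, and Cd79a, Cxcr5 and Glycam1 place ligated 4 and 5 with sham 2 to 5.

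The B cell genes were near absent outside the 4 libraries. Cd79a, a signalling chain of the B cell receptor (chr7:24897381-24902197), was at 73.3, 78.7, 82.5, 0.670 and 0.933 FPKM in ligated 1 to 5, against 101, 0.678, 0, 0.907 and 0 FPKM in sham 1 to 5. The 4 libraries differed among themselves by less than 2 times, whereas the lowest of them was 78.6 times the highest of the other 6, in which at most 18 reads were found. Its partner Cd79b (chr11:106311341-106314762) was at 63.5, 78.7, 85.8, 1.27 and 1.32 FPKM in ligated 1 to 5, against 102, 0.115, 0.323, 1.21 and 0 FPKM in sham 1 to 5. It was the 1 B cell gene of the 8 that could be tested with the filter, and its difference of 2.55 ± 1.51 did not pass (limma, adjusted p = 0.156).

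Cxcr5, the receptor that guides B cells and follicular helper T cells to CXCL13, was at 11.5, 11.4, 14.9, 0.0209 and 0 FPKM in ligated 1 to 5, against 20.3 FPKM in sham 1 and 0 in sham 2 to 5. Outside the 4 libraries it rests on 1 read in all. Pax5, the factor that keeps B cell identity, was at 7.78, 10.1, 12.1, 0.0158 and 0 FPKM in ligated 1 to 5, against 15.4, 0, 0, 0.0933 and 0 FPKM in sham 1 to 5. Ms4a1, which encodes CD20, reached 12.5 to 23.8 FPKM in ligated 1 to 3 and 27.7 FPKM in sham 1, and at most 0.158 FPKM elsewhere. The complement receptor Cr2 and the low-affinity IgE receptor Fcer2a, both of follicular B cells, were at most at 0.137 and 0.384 FPKM in the other 6 libraries, against at least 5.79 and 10.5 FPKM in the 4. None of the 8 B cell genes was called by limma without a filter with all libraries, with log2 fold changes from 1.18 to 2.55. In ligated 4 and 5 against sham 2 to 5, Cd22 had 0.71 ± 0.15, which passed the p limit but not the fold limit, and the others ranged from -0.02 to 0.77.

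Cd22, an inhibitory receptor of B cells, was at 14.2, 24.0, 23.2, 0.733 and 0.973 FPKM in ligated 1 to 5, against 28.2, 0.0817, 0.0458, 0.410 and 0.0317 FPKM in sham 1 to 5. Its promoter is shown because Cd22 was the single gene of the 27 with the EBF1 motif (chr7:30878979-30879278, minus strand). The motif was searched as TCCC, any 2 bases and GGGA on both strands and is shown in capitals.
Cd22: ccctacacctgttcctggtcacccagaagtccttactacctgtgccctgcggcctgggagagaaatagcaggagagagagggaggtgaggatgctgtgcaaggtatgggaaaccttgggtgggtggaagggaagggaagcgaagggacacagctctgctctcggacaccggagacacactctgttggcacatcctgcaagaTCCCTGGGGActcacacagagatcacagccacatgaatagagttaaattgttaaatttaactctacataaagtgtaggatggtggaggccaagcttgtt
EBF1 is a transcription factor of early B cells, and 0.904% of the 32851 promoters hold these letters. The octamer ATGCAAAT was in 0 of the 27 genes and in 1.74% of all promoters. The NF-kB motif, searched as GGG, any 2 bases and TTTCC, was in Ltb alone and in 1.63% of all promoters.

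The stromal and organising genes separated the libraries in the same way, with one marker at 0 outside the 4. Glycam1, a secreted carrier of L-selectin ligands made by high endothelial venules (chr15:103562759-103565081), was at 16.3, 11.9, 26.2, 0 and 0 FPKM in ligated 1 to 5, against 32.4 FPKM in sham 1 and 0 in sham 2 to 5. Cxcl13 (chr5:95956951-95961068) was at 39.1, 37.8, 59.1, 0.607 and 1.77 FPKM in ligated 1 to 5, against 78.3, 0.143, 1.00, 0.862 and 0.209 FPKM in sham 1 to 5. Its mean was 27.7 ± 25.6 FPKM in ligated and 16.1 ± 34.7 FPKM in sham libraries (SD, n = 5 each), and the log2 fold change of 2.00 ± 1.36 did not pass (limma, adjusted p = 0.212).

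Ccl21a was the most abundant of the 38 genes, and in sham 2 to 5 it rested on 44 to 144 reads (chr4:42772860-42773993, minus strand). It was at 149, 96.7, 138, 16.6 and 15.0 FPKM in ligated 1 to 5, against 234, 4.17, 9.56, 8.74 and 8.82 FPKM in sham 1 to 5. Ligated 4 and 5 lay above sham 2 to 5 here too, and the log2 fold change of 1.77 ± 1.04 did not pass (limma, adjusted p = 0.151). Ccl21a is 99.5% identical over 402 aligned transcript bases to Ccl21b, which is listed at 0 in every library, so its reads may come from more than one copy. Ccl19 was at 17.0, 8.66, 16.7, 0.402 and 1.31 FPKM in ligated 1 to 5, against 15.7, 0, 0.133, 0 and 0 FPKM in sham 1 to 5 (1.81 ± 0.95, limma, adjusted p = 0.115). Ltb, the lymphotoxin subunit that lymphocytes use to maintain node stroma, was at 50.3, 55.3, 58.4, 4.79 and 6.32 FPKM in ligated 1 to 5, against 59.4, 2.06, 2.06, 5.50 and 2.79 FPKM in sham 1 to 5. Sham 4 exceeded ligated 4, and the difference did not pass (1.80 ± 0.95, limma, adjusted p = 0.117).

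Ratios within a library compared the cell types with each other, as log2 of the FPKM ratio with 0.1 FPKM added. Of 5 ratios tested, 0 passed an exact permutation test between the groups, whose smallest possible p is 0.00794. Cd79a to Cd3e was 4.2, 3.75, 3.61, 0.50 and 0.30 in ligated 1 to 5, against 4.21, 2.96, -1.88, 2.06 and -0.99 in sham 1 to 5 (two-sided exact p = 0.437). Sham 1 had the ratio of ligated 1, and in ligated 4 and 5 the B cell gene exceeded the T cell gene far less. Nkg7 to Cd3e was 1.85, 1.52, 1.62, 3.47 and 3.40 in ligated 1 to 5, against 1.09, 4.11, 3.68, 3.23 and 2.30 in sham 1 to 5 (two-sided exact p = 0.452). In both ratios ligated 4 and 5 lay among sham 2 to 5 and away from the other ligated libraries. Ccl21a to Cd79a averaged 2.07 ± 1.93 in ligated and 3.97 ± 2.44 in sham libraries (SD, n = 5 each, two-sided exact p = 0.206). Cd3e to Ptprc, the pan-leukocyte gene CD45, averaged -2.20 ± 0.32 in ligated and -2.20 ± 0.50 in sham libraries (SD, n = 5 each, two-sided exact p = 0.992). The adjusted p over the 5 ratios was 0.753 or higher. Where both genes are near 0, as in sham 2 to 5, the added 0.1 FPKM sets much of the ratio.

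Other genes of the same cell types, none of them among the 38, were taken from further lists. Of 20 other T cell genes, 7 were tested and 1 was higher, of 14 NK and cytotoxic genes 5 were tested and 2 were higher, of 20 B cell genes 9 were tested and 4 were higher, and of 11 measured node stroma genes 3 were tested and 1 was higher. In each list 0 were lower. The background is again 17.1% higher. As with the 38, ligated 1, 2 and 3 and sham 1 were the 4 highest libraries in 19 of the 20 T cell and 19 of the 20 B cell genes, but in 9 of the 14 NK and 6 of the 11 node stroma genes.

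Some of the called genes are also known from other cell types. Thy1, a surface protein of T cells and also of fibroblasts, was at 24.8, 46.3, 33.5, 18.4 and 30.9 FPKM in ligated 1 to 5, against 19.3, 2.70, 2.47, 1.88 and 2.19 FPKM in sham 1 to 5, with a log2 fold change of 2.68 ± 0.49 (limma, adjusted p = 0.00167). Ebf1, a factor of B cells and also of fat and stromal cells, was at 2.83, 6.43, 4.68, 2.54 and 2.80 FPKM in ligated 1 to 5, against 2.72, 0.414, 0.373, 0.296 and 0.377 FPKM in sham 1 to 5 (1.48 ± 0.32, limma, adjusted p = 0.00365). In both genes ligated 4 and 5 were near the level of ligated 1. The call of Ebf1 was lost after quantile normalization (0.86). Mfge8, made by follicular dendritic cells and also by macrophages and epithelium, was at 65.3 to 97.5 FPKM in ligated libraries, against 64.3 FPKM in sham 1 and 12.7 to 15.9 FPKM in sham 2 to 5 (1.87 ± 0.37, limma, adjusted p = 0.00260). Thy1 and Mfge8 were called in every alternative, including both scalings and each left-out library.

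The chemokine Ccl5 of cytotoxic cells had a log2 fold change of 1.89 ± 0.54 and the protease Ctsw 1.06 ± 0.33 (limma, adjusted p = 0.0128 and 0.0178), and Cd83, Cd72 and Blnk of the B cell list had 2.09 ± 0.76, 1.57 ± 0.46 and 1.21 ± 0.46 (limma, adjusted p = 0.0358, 0.0140 and 0.0402). After median-ratio scaling these 5 calls were lost. The call of Ctsw was also lost without ligated 1 or 3 or sham 2 or 4 (0.92 to 0.96), and those of Blnk (1.05 to 1.14) and Cd83 (1.73 to 2.07) without any 1 of ligated 1, 2, 3 and sham 2, 3, 4 and 5. In ligated 4 and 5 against sham 2 to 5 without a filter, 5 of the 20 T cell genes (Thy1, Tcf7, Trbc1, Lat and Gimap3) and 6 of the 20 B cell genes (Cd83, Cd72, Ebf1, Ighm, Cd37 and Blnk) were higher, against 11.8% of all genes.

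Other cell types varied between the same libraries. Some genes of node vessels and of germinal centres, the sites in follicles where activated B cells divide, followed the 4 libraries. Madcam1 and Chst4, made in high endothelial venules, were at 0 in the other 6 libraries and at 1.62 to 4.68 and 0.813 to 1.70 FPKM in the 4. Mef2b, a transcription factor of germinal centre B cells, was at 6.48, 5.40, 8.72, 0.298 and 0 FPKM in ligated 1 to 5, against 9.25, 0, 0, 0.177 and 0.228 FPKM in sham 1 to 5. Of 5 germinal centre markers, 3 had the 4 libraries highest, while Bcl6 and S1pr2 did not, and the 5 summed to 20.1 to 36.6 FPKM in ligated and 8.66 to 24.7 FPKM in sham libraries. The plasma cell list summed to 6514, 6648, 13497, 866 and 342 FPKM in ligated 1 to 5. In sham 1 to 5 it summed to 12222, 179, 1880, 1051 and 286 FPKM. Igkc alone reached 12644 FPKM in ligated 3. Of the 6 plasma cell genes, 4 had the 4 libraries highest, while Derl3 and Igha did not. Of 5 thymocyte markers, the recombinase genes Rag2 and Rag1 were at 0 in every library and at most at 0.169 FPKM, and Ptcra was at most at 0.258 FPKM. Dntt reached 1.89 FPKM in ligated libraries and 0.607 FPKM in sham 1, and Cd1d1, which other cells also make, was at 4.79 to 12.0 FPKM in ligated and 0.801 to 4.30 FPKM in sham libraries. The 5 summed to 5.27 to 13.3 FPKM in ligated and 0.801 to 5.03 FPKM in sham libraries. The pan-leukocyte list summed to 369, 492, 567, 138 and 190 FPKM in ligated 1 to 5, against 506, 25.2, 36.8, 36.3 and 31.0 FPKM in sham 1 to 5.

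Macrophage, fat, muscle and parotid genes varied in other ways. In all 8 macrophage markers every ligated library exceeded every sham library, which held for 26.4% of the 15172 genes. Their sums were 428 to 771 FPKM in ligated and 94.6 to 159 FPKM in sham libraries, sham 1 at 149 FPKM. Adipocyte markers summed to 237 to 887 FPKM in ligated libraries, against 18.0 FPKM in sham 1 and 1.20 to 6.66 FPKM in sham 2 to 5. Skeletal muscle markers summed to 27.3 to 670 FPKM in ligated and 1.75 to 3.97 FPKM in sham libraries. The parotid secretory gene Bpifa2 was at 43.5, 18720, 34754, 1.46 and 16877 FPKM in ligated 1 to 5, against 14814, 244, 223, 949 and 426 FPKM in sham 1 to 5. The sets of libraries overlapped in part. Ligated 2, ligated 3 and sham 1 were high in both lymphoid genes and Bpifa2. Ligated 1 was high in lymphoid genes and low in Bpifa2, and ligated 5 the reverse. Car6, also on the parotid list, was at 1788 to 9106 FPKM in ligated and 8728 to 18095 FPKM in sham libraries, and the whole list summed to 4657 to 45857 FPKM in ligated and 13677 to 26934 FPKM in sham libraries. The part of these tissues in the levels of the 38 genes was not tested.

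**Figure D5:**
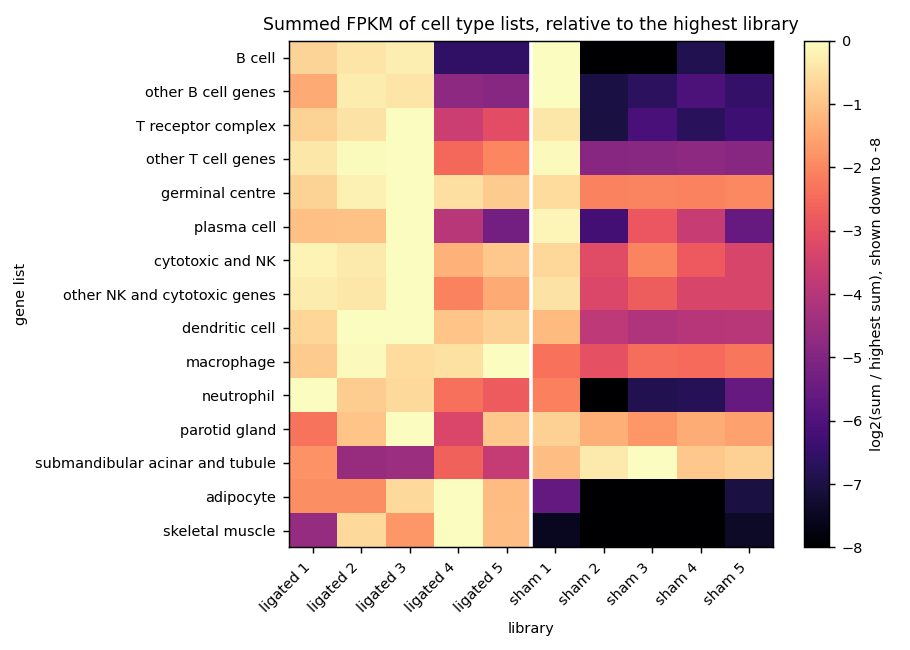
Summed FPKM of 15 gene lists in ligated libraries 1 to 5 (left) and sham libraries 1 to 5 (right), as log2 of the sum over that of the highest library. B and T cell lists peak in ligated 1, 2 and 3 and sham 1, whereas macrophage, adipocyte and muscle lists are higher in all 5 ligated libraries than in any sham library.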

How the data were processed

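RNA from submandibular glands was purified on silica columns and made into libraries with a SMARTer messenger RNA kit, per the labels' protocols. The authors deposited a single table of FPKM for all libraries. Per the submitters' processing notes the build was GRCm38 (mm10). Which aligner, counter and annotation made the values is not given in the sources used here. FPKM are not counts, so log2(FPKM + 1) was fitted with limma 3.58.1 in R 4.3.3, with both groups, no covariate and variances moderated by empirical Bayes along a trend in mean expression. Tests are two-sided. The filter, the call rule and the 5 exact permutation tests of ratios are given with the results, and the fits without libraries kept the genes of the filter on all 10.

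Reads were recovered as FPKM times merged exon length in GENCODE M21, which holds 53292 (96.4%) of the gene symbols. Below 200 reads, 98.3% to 98.4% of values were whole within 0.01 of a read. Between 67.0% and 75.2% of low values were even multiples, so whether 1 unit is a read or one mate of a pair is not known. The level given for 3 reads covers counting error only. Positions come from GENCODE M21 on GRCm38, and promoters from RefSeq.

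The 38 genes and all lists were chosen with earlier results of these data known. All 38 are accounted for. From each other list up to 4 called genes with the largest change were to be named. Tcf7, Trbc1, Lat, Gimap3, Ighm, Cd37 and the single markers were named after their values were seen. Alternatives were another pseudocount, filters, scalings, a replicate block, voom on recovered reads, and libraries left out one at a time. Fits without the 4 libraries that stood apart, without sham 1 and no filter, and with a B cell covariate (the mean of the other B cell genes) were added after seeing the data. The scripts were tested on simulated data. One germinal centre marker is not reported here.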

Additional observations from a re-analysis of the deposited data

Results flagged for a closer look

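Single libraries lay far from the rest of their group in 34 of the 38 genes, by the gap to the nearest library over the range of the group of 5. In 33 of them the library was sham 1, above the other sham libraries, and in Gzmb it was ligated 2, below the other ligated libraries (0.73). Chance gives such a gap in about 1 in 20 groups, and these genes share the same libraries. That rate is per group, while both groups of each gene were searched. Whether it holds for genes near absent in most sham libraries was not tested. No share over all genes was taken for this gap, so the count of 34 describes the pattern and does not test it. For the T cell receptor genes the gap of sham 1 was 0.87 of the range in Cd3e, 0.91 in Cd3d, 0.95 in Cd3g, 0.92 in Cd4, 0.81 in Cd8a, 0.93 in Cd8b1, 0.89 in Trac and 0.82 in Trbc2. For the signalling genes it was 0.90 in Lck, 0.92 in Zap70, 0.73 in Cd2, 0.94 in Cd5, 0.85 in Cd28, 0.91 in Icos and 0.79 in Ctla4. Foxp3 had 0.90, Il7r 0.89, Ccr7 0.96, Gzmk 0.79 and Prf1 0.72. For the B cell genes it was 0.86 in Cd79a, 0.83 in Cd79b, 0.98 in Ms4a1, 0.99 in Cr2, 0.97 in Fcer2a, 1.00 in Cxcr5, 0.91 in Cd22 and 0.97 in Pax5. For the node genes it was 0.96 in Ccl19, 0.81 in Ccl21a, 0.87 in Cxcl13, 1.00 in Glycam1 and 0.75 in Ltb. Values were taken on the log2(FPKM + 1) scale. In 32 of the 33 genes with sham 1 apart, ligated 4 and 5 were the lowest ligated libraries, Gzmk being the exception, and a gap next to 1 library does not detect a pair.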

How the results depend on the processing

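The count of the 38 genes called higher, 6 as reported, was 13 with a pseudocount of 0.1, 2 with no filter, 2 with a filter at 5 FPKM (4 tested), 0 after median-ratio scaling, 0 after quantile normalization, 18 with libraries rescaled to the same summed FPKM and 10 with voom on recovered reads. It ranged from 2 to 21 when each library was left out. It was 10 without ligated 1, 2, 3 and sham 1, with or without the filter, 23 without sham 1 and no filter, and 2 with the B cell covariate, with or without the filter (Trbc2 and Il7r). The count called lower was 0 in every setting run. Replicate numbers did not clearly pair the samples. The correlations of same-numbered libraries after removing group means were 0.18, -0.38, -0.08, 0.33 and 0.58. Ligated 1 and 5 correlated best with their own number, and ligated 2, 3 and 4 with another number. Whether mice were paired by number cannot be told from these values. With a replicate block the count was 11, against 17.6% of all genes higher and 1.02% lower, and 5, 4, 5 and 1 for the other T cell, NK, B cell and stroma lists.

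As reported, 1, 2, 4 and 1 genes of those 4 lists were higher. For other T cell genes the count was 4 with a pseudocount of 0.1 and with voom, 7 rescaled to the same sum, 5 without the 4 libraries, 11 without sham 1 and no filter, and 1 to 7 with libraries left out. For NK genes it was 1 with the filter at 5 FPKM, without the 4 libraries or with the covariate, 0 after either scaling, 5 rescaled or without sham 1 and no filter, and 1 to 5 with libraries left out. For B cell genes it was 2 with no filter or the filter at 5 FPKM, 1 after median-ratio scaling or with the covariate they make up, 0 after quantile normalization, 8 without sham 1 and no filter, and 2 to 9 with libraries left out. For stroma it was 2 rescaled and 3 without sham 1 and no filter.

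The Cd79a to Cd3e log2 ratio (1.20) was -0.14 without the 4 libraries. The Nkg7 to Cd3e log2 ratio (-0.51) was 0.51 with a pseudocount of 1 and 0.11 without the 4 libraries. The Cd8a to Cd4 log2 ratio (0.23) ranged from -0.01 (without sham 4) to 0.50 with libraries left out. The Cd3e to Ptprc log2 ratio (-0.01) was -0.75 with a pseudocount of 1, where the exact permutation test gave p = 0.0476, and ranged from -0.21 to 0.13 with libraries left out, being above 0 without ligated 4 (0.07), ligated 5 (0.09), sham 3 (0.13), sham 4 (0.04) or sham 5 (0.02). The Ccl21a to Cd79a log2 ratio (-1.90) was below 0 in every setting run. Outside the 4 libraries many of these genes rest on under 20 reads, so their fold changes and ratios there are imprecise, and with 2 ligated against 4 sham libraries no exact test can pass 0.05. The cause of these shifts was not tested.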
